A study of Macaca mulatta with 95 samples.

Results

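The epiblast of the late rhesus macaque (Macaca mulatta) blastocyst, the cells that go on to form the embryo proper, was set against the inner cells of the early blastocyst. The late side held 6 of 10 inner cells with title letter G from late blastocysts, collected at about day 6 with a fully expanded cavity. The early side held all 3 inner cells of the same letter from early blastocysts, collected at about day 5 with a small cavity. Further cells titled as late blastocyst of letter G carry labels of 2 stages and were not offered to the choice. All 10 late cells below means the 10 that were offered. Late cells were selected on measured values of 2 genes, being taken at 50 RPKM or more (reads per kilobase of gene and megaread) of NANOG, a transcription factor of pluripotent cells, and under 500 RPKM of APOA1, an apolipoprotein of the hypoblast. These 9 cells belong to a series of 95 single cells from embryos fertilised and cultured in HECM-9 medium with serum after ovarian stimulation of cycling females with FSH and hCG. Inner cells were those not stained by a membrane dye that marks the surface of the live embryo, and each was amplified and sequenced as its own library. All 9 cells carry the letter G, which the labels do not explain, and no label names an embryo, an animal or a culture. Each group therefore counts as 1 sample, no test was made, every SD is the spread between cells, and each difference describes these cells alone.

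As background, the inner cell mass of a primate blastocyst separates into the epiblast, which is pluripotent, and the hypoblast, which lines the cavity. Pluripotency is held by POU5F1, SOX2 and NANOG. In the naive form, before implantation, factors such as KLF4, TFCP2L1 and TBX3 stand beside them, and in the primed form, close to gastrulation, genes such as ZIC2, DNMT3B and SFRP2 are used and cells depend on FGF and on Nodal or activin signals.

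Recovered reads ran from 5.80 to 7.60 megareads in late cells and from 3.19 to 8.41 in early cells, early cell 18 being the shallowest. Between 3792 and 5021 genes reached 1 RPKM in late cells and between 4209 and 5028 in early cells. Across 7778 genes the rank correlation was 0.481 to 0.633 between late cells, 0.529 to 0.565 between early cells and 0.432 to 0.523 between a late and an early cell. This is a description only, since all pairs use the same genes, pairs share cells and depth differs between cells. Single cells list many genes at or near 0 in one cell and well above 0 in the next, so values are given cell by cell, and a gene near 0 is not shown to be absent. Markers of the other cells that could be present were summed. Cumulus and sperm lists summed to at most 0.0227 RPKM in any cell of either group. The blood list reached 46.1 RPKM in late cells and 212 RPKM in early cells through LYZ and TYROBP alone (0 higher and 2 lower of 2 measured, or 1 higher and 0 lower of 1 without early cell 18), with HBB, HBA1, CD14, CD79A and S100A8 at 0. Early cell 18, at 183 RPKM of TYROBP and 29.0 RPKM of LYZ, was the only early cell with either above 0, and late cell 02 had 46.1 RPKM of TYROBP. The fibroblast list ran from 0.256 to 171 RPKM in late cells, against at most 0.554 RPKM in early cells, through COL1A1 and COL1A2 (2 higher and 0 lower of 2 measured), with COL3A1, DCN, LUM and POSTN at 0. In inner cells of letter H, COL1A2 averaged 158 ± 111 RPKM in hatched and 0.0117 ± 0.0165 RPKM in early blastocysts (SD, n = 9 and 2). TYROBP averaged 63.6 ± 30.9 RPKM in the same early cells. Whether either gene marks other cells here was not tested.

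The choice of cells rests on NANOG and APOA1, which are therefore described and not counted as results. NANOG lay between 236 and 1087 RPKM in the 6 late cells taken and at 85.5, 184 and 84.5 RPKM in the 3 early cells, so the early cells pass the same limits. The late cell just inside the NANOG limit was cell 18, and just outside was cell 17 at 0.856 RPKM. Of the 4 late cells left out, cells 11, 12 and 17 held 4139, 3757 and 2471 RPKM of APOA1. The fourth, cell 23, held 0.952 RPKM of APOA1 and 0.176 RPKM of NANOG, so the APOA1 limit removed no cell that the NANOG limit had not. Genes that go with NANOG among late cells are in part set by this choice.

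**Figure D1:**
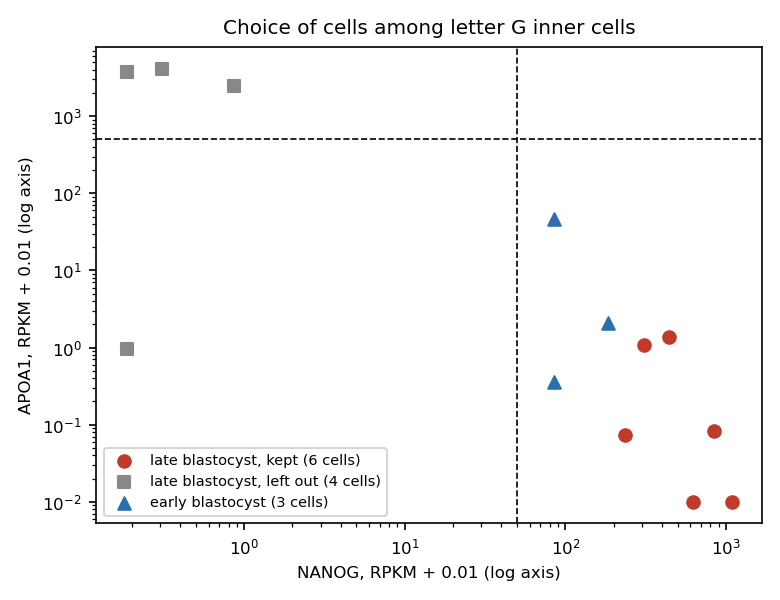
NANOG (x axis) and APOA1 (y axis) in RPKM, both on log axes, for the early and the offered late blastocyst inner cells of letter G. Red circles are the 6 late blastocyst cells taken, grey squares the 4 left out and blue triangles the 3 early blastocyst cells, with the limits of 50 and 500 RPKM as dashed lines; every early cell lies on the same side of both limits as the late cells taken.

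Late epiblast cells differed from early inner cells in many genes. Of 6529 genes with a mean of at least 5 RPKM on either side, 1802 (27.6%) were at least 2-fold higher and 2108 (32.3%) at least 2-fold lower in late cells, on the log2 ratio of group means after adding 1 RPKM, which understates the change of low genes. The cells of the 2 groups did not overlap for 179 of the higher genes (2.74% of those measured) and 314 of the lower ones (4.81%). The median log2 ratio over all measured genes was -0.12, and scaling by median-of-ratios size factors moved it to 0.02. The counts of each gene list below are to be read against 27.6% higher and 32.3% lower, and the lists and cells were chosen with results of these data known. Markers of the epiblast were compared first. They cannot check the label, because late cells were chosen on NANOG, itself an epiblast marker, and the early cells pass the same limits. Of the epiblast list, 8 of 10 measured members were higher and 1 lower, and the list summed to 9924 to 15499.5 RPKM in late cells, against 2526 to 4002 RPKM in early cells.

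**Figure D2:**
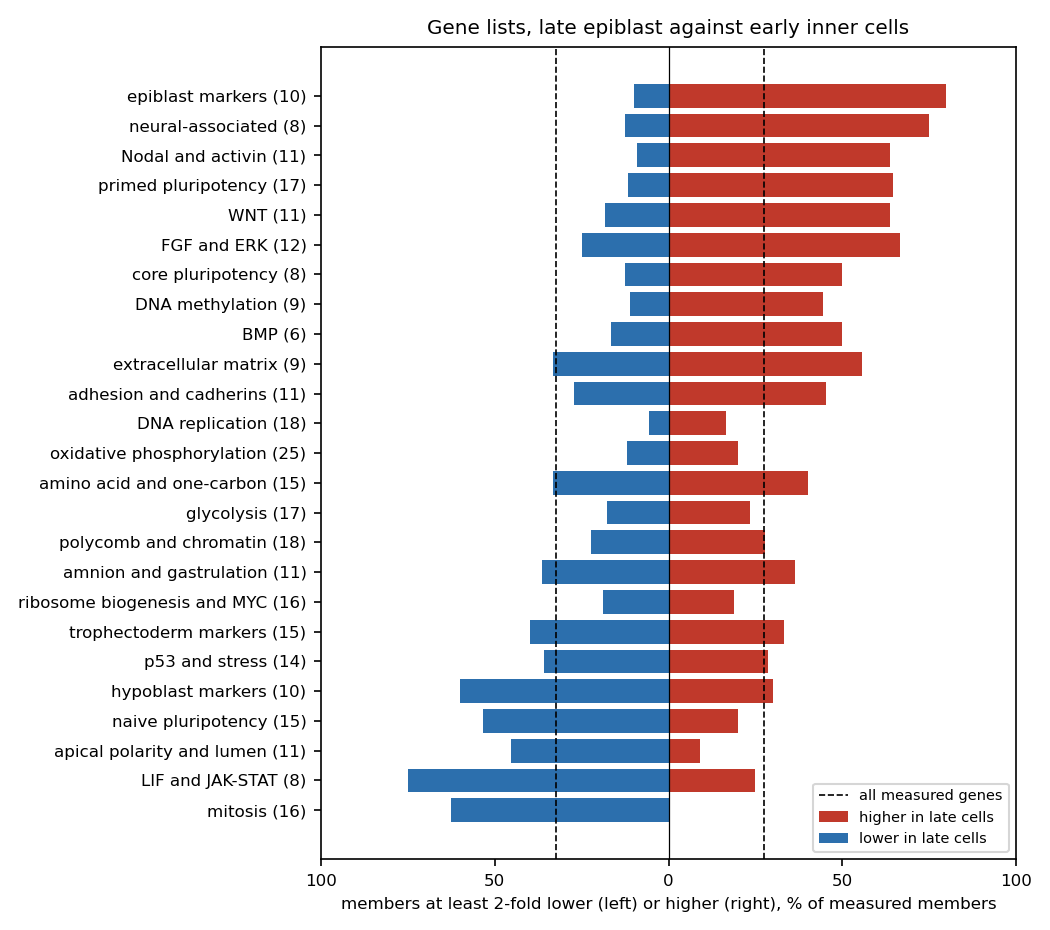
Share of the measured members of each gene list with at least 6 of them that were at least 2-fold higher (right, red) or lower (left, blue) in the 6 late epiblast cells than in the 3 early inner cells, in percent, with the number of measured members in brackets. Dashed lines mark 27.6% higher and 32.3% lower over all 6529 measured genes; epiblast markers, neural-associated, FGF and primed lists reach furthest right, and LIF, mitosis, hypoblast and naive lists furthest left.

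The core of the pluripotency network was present in both groups and was higher in late cells for some of its genes (4 of 8 measured members higher and 1 lower). POU5F1, which encodes the factor OCT4, stood at 3727 to 9054 RPKM with a median of 5962 in late cells, against 2395, 2021 and 1578 RPKM in early cells 11, 13 and 18. Every late cell lay above every early cell (log2 ratio 1.61). SOX2, the partner of OCT4 on DNA, stood at 0.0814 to 127 RPKM with a median of 92.0 in late cells, against 11.8, 68.5 and 0 RPKM in early ones. Late cell 06 was at 0.0814 RPKM and so the groups overlapped (log2 ratio 1.62, or 3.63 without early cell 13 and 1.05 without early cell 18). SALL4, another gene of pluripotent cells, averaged 26.9 ± 29.0 RPKM in late cells and 20.1 ± 17.5 RPKM in early cells, L1TD1 107 ± 43.6 and 107 ± 80.7 RPKM, both within 2-fold, and TDGF1 and GDF3 are taken up with Nodal below. IFITM1, an interferon-induced membrane protein used here as an epiblast marker, averaged 1637 ± 415 RPKM in late cells and 284 ± 60.0 RPKM in early cells (SD, n = 6 and 3) without overlap. PRDM14, a repressor tied to the naive state in mouse, was at 0 to 63.2 RPKM with a median of 1.81 in late cells, against 0, 80.0 and 0 RPKM in early cells, and its log2 ratio of -1.01 turned to 3.78 without early cell 13.

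Genes of naive pluripotency split. The list had 3 of 15 measured members higher and 8 lower, with a median log2 ratio of -1.01, or 5 higher and 6 lower without early cell 13. That median is the ratio of PRDM14, which rests on early cell 13. With median-of-ratios size factors the list had 3 higher and 6 lower of 14 measured, with a median of -0.71. Among the lower members, ZFP42 also rests on early cell 13 (log2 ratio -1.48, or 1.21 without it). KLF4, a factor that holds naive pluripotency, stood at 0.0794 to 241 RPKM with a median of 24.2 in late cells, against 1426, 806 and 663 RPKM in early cells 11, 13 and 18 (log2 ratio -3.99). All late cells lay below all early cells, although late cell 02 kept 241 RPKM. TBX3, a T-box factor, was at 0.0353 to 0.188 RPKM with a median of 0.0385 in late cells and at 41.6, 67.6 and 58.3 RPKM in early cells. TFCP2L1, a partner of the naive circuit in mouse and human, was at 0.00642 to 4.53 RPKM with a median of 0.173 in late cells, against 11.0, 22.2 and 15.1 RPKM in early cells. KLF5 averaged 12.0 ± 13.5 RPKM in late cells and 76.4 ± 40.4 RPKM in early cells, and the late cells that the choice leaves out raise its late mean, so that its log2 ratio of -2.58 became 0.30 over all 10 late cells. KHDC1L was at 134 to 752 RPKM with a median of 474 in late cells, against 1151, 1299 and 783 RPKM in early cells. KLF4, TBX3, TFCP2L1, KLF5 and KHDC1L did not overlap between groups.

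Other naive genes went the other way or stayed near level. KHDC3L, known as an oocyte and embryo gene, was at 1276 to 3526 RPKM with a median of 2493 in late cells, against 344, 22.9 and 393 RPKM in early cells (log2 ratio 3.28), and DPPA5 at 1293 to 3627 RPKM with a median of 2706 in late cells, against 755, 22.1 and 435 RPKM in early cells (log2 ratio 2.68). Both lay above every early cell in every late cell. KHDC1L, KHDC3L and DPPA5 belong to a family of related genes whose reads may be shared between copies, so their levels are uncertain. UTF1 was the third higher gene, at 16.5 ± 10.7 RPKM in late cells and 3.02 ± 4.29 RPKM in early cells with overlap (log2 ratio 2.13, or 3.49 without early cell 11). DPPA3 averaged 1127 ± 1081 RPKM in late cells and 1691 ± 609 RPKM in early cells, DPPA2 266 ± 90.8 and 316 ± 45.9 RPKM, and DNMT3L, a cofactor of DNA methylation, 643 ± 361 and 1211 ± 419.8 RPKM; none of the 3 passed 2-fold.

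**Figure D3:**
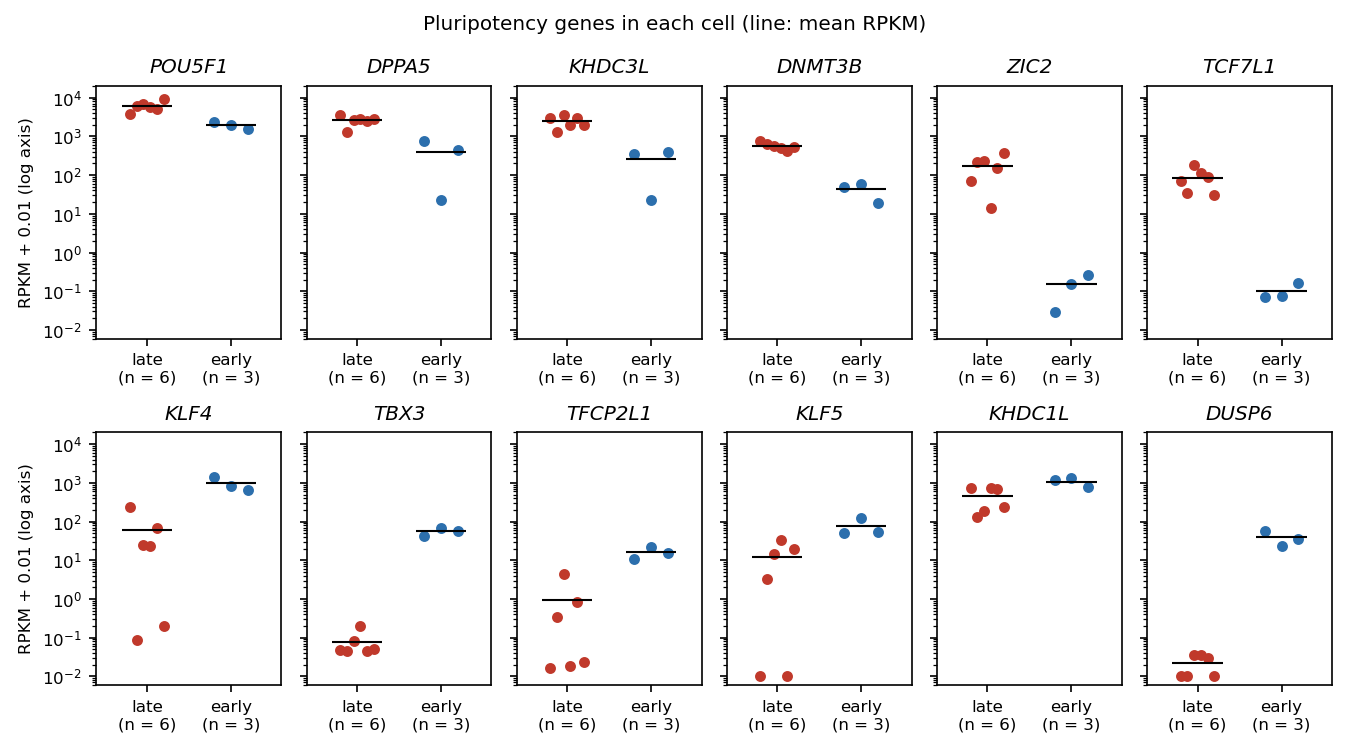
RPKM plus 0.01 on a log axis for 12 pluripotency genes, each point a cell, with late epiblast cells (red, n = 6) left of early inner cells (blue, n = 3) and a line at the mean. The 12 genes are a chosen set, and in all 12 the cells of the 2 groups do not overlap. Without overlap were 2 higher and 5 lower of 15 measured naive members. Of 17 primed ones 4 were higher and 1 lower without overlap, against 2.74% and 4.81% of all measured genes.

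Primed genes were mostly higher. The list had 11 of 17 measured members higher and 2 lower, with a median log2 ratio of 3.61, a value that depends on the added 1 RPKM because many early values are near 0. ZIC2, a zinc-finger factor of the primed state, was at 14.4 to 363 RPKM with a median of 186 in late cells, against 0.0196, 0.145 and 0.256 RPKM in early cells 11, 13 and 18. DNMT3B, a de novo DNA methyltransferase, was at 408 to 780.3 RPKM with a median of 547 in late cells, against 48.5, 59.8 and 19.0 RPKM in early cells (log2 ratio 3.73). TCF7L1, a WNT-pathway repressor, was at 31.1 to 180.0 RPKM with a median of 78.1 in late cells and 0.0597, 0.0633 and 0.156 RPKM in early cells. In these 3 genes, and in PTPRZ1, a receptor phosphatase at 21.7 ± 20.4 RPKM in late cells and 0.0246 ± 0.0114 RPKM in early cells, the groups did not overlap.

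Several primed genes were on in some late cells only. FZD7, a WNT receptor, reached 5 RPKM in 4 of 6 late cells and in 0 of 3 early cells, and FOXD3 in 4 and 0. SFRP2, a secreted WNT antagonist, stood at 74.9, 7.29 and 54.8 RPKM in late cells 02, 18 and 20 and was listed at 0 in the other late cells and in all early cells. LIN28B, which blocks let-7 microRNA maturation, averaged 12.4 ± 15.3 RPKM in late cells and 0.0733 ± 0.0395 RPKM in early cells with overlap. No late cell held all 4 of these genes at 5 RPKM or more, and HMGA1, a chromatin protein, was near level (log2 ratio 0.67). The exceptions among primed genes were DUSP6, a phosphatase that turns off ERK, at 0 to 0.0267 RPKM with a median of 0.0101 in late cells and 57.5, 22.8 and 36.2 RPKM in early cells, and GRHL2, an epithelial factor that was above 0 in early cell 13 alone, at 24.1 RPKM. OTX2, which both primed and hypoblast lists hold, stood at 46.8 RPKM in late cell 09 and at most 0.106 RPKM in the other late cells, against 16.7, 0.0279 and 25.7 RPKM in early cells.

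Several Nodal pathway genes were higher in late cells, among them ligands, the co-receptor and feedback genes, though not all of them in every late cell. Nodal and GDF3 are ligands of the TGF-beta family, TDGF1 (CRIPTO) is the co-receptor they need, SMAD proteins carry the signal, and SMAD7 and LEFTY2 dampen it. The list had 7 of 11 measured members higher and 1 lower. TDGF1 had the largest log2 ratio of all genes whose groups did not overlap, 7.86, at 112 to 615 RPKM with a median of 289 in late cells, against 0.117, 0.278 and 0.687 RPKM in early cells 11, 13 and 18. NODAL stood at 0.639, 141, 180.1, 23.2, 125 and 0.0522 RPKM in late cells 02, 06, 09, 14, 18 and 20, against 0.0718, 0.0761 and 0.188 RPKM in early cells. It was thus high in 4 late cells, while cell 20 was below every early cell. GDF3 was at 145 to 632 RPKM with a median of 327 in late cells, against 82.8, 0.503 and 0.372 RPKM in early cells (log2 ratio 3.52, or 7.84 without early cell 11). SMAD7 averaged 134 ± 71.8 RPKM in late cells and 12.2 ± 20.8 RPKM in early cells without overlap (log2 ratio 3.36, or 6.81 without early cell 13), and SMAD4 18.5 ± 6.12 and 4.47 ± 5.68 RPKM, also without overlap (log2 ratio 1.83, or 3.10 without early cell 11). LEFTY2 was at 28.5 RPKM in late cell 18 and 6.55 RPKM in late cell 02 and under 1 RPKM in the other 7 cells (log2 ratio 2.71, or 1.18 without late cell 18). TGFBR1, a type I receptor, was the lower member, at 0 to 10.8 RPKM with a median of 1.17 in late cells, against 45.3, 42.3 and 0 RPKM in early cells, and FOXH1, the factor that takes SMADs to DNA, did not pass 2-fold (log2 ratio -0.49).

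FGF genes differed by receptor. The list had 8 of 12 measured members higher and 3 lower. Lower members included the ERK phosphatase DUSP6, described above with the primed genes (log2 ratio -5.30, without overlap). FGFR1 was at 48.1 to 173 RPKM with a median of 111 in late cells, against 1.04, 15.0 and 51.5 RPKM in early cells 11, 13 and 18 (log2 ratio 2.18, or 3.56 without early cell 18), with late cells 09 and 14 below early cell 18. FGFR2 was at 0 to 0.915 RPKM with a median of 0.0399 in late cells, against 117, 12.6 and 10.8 RPKM in early cells (log2 ratio -5.31, or -3.39 without early cell 11), without overlap. ETV4, an ETS factor induced by FGF, was at 239 to 534 RPKM with a median of 433 in late cells, against 45.1, 65.2 and 0.776 RPKM in early cells (log2 ratio 3.46), and its relative ETV1 averaged 18.2 ± 17.0 RPKM in late cells and 0.00313 ± 0.00543 RPKM in early cells; neither overlapped. The feedback inhibitor SPRY2 was high in late cells 02, 09 and 20 at 27.6, 269 and 167 RPKM and at most 3.80 RPKM in the others, against 0, 10.7 and 0.431 RPKM in early cells.

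In the WNT list 7 higher and 2 lower of 11 measured members passed 2-fold. CTNNB1, which encodes beta-catenin, averaged 149 ± 67.9 RPKM in late cells and 58.5 ± 13.9 RPKM in early cells without overlap (log2 ratio 1.34), and AXIN1, a part of the complex that degrades it, 31.5 ± 16.1 and 7.13 ± 5.92 RPKM with overlap (log2 ratio 2.00). The antagonist SFRP1 was above 1 RPKM in late cell 09 alone, at 43.8 RPKM. DKK1, another antagonist, had 30.3 RPKM in early cell 11 and at most 1.36 RPKM in any other of the 9 cells, so its log2 ratio of -3.07 became 0.21 without that cell. GSK3B, the kinase of the degradation complex, likewise rests on early cell 18 at 188 RPKM (log2 ratio -2.25, or -4.34 without late cell 06 and 2.01 without early cell 18).

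In the BMP list 3 higher and 1 lower of 6 measured members passed 2-fold, the ID genes, targets of BMP signals, differing among themselves. ID1, an inhibitor of basic helix-loop-helix factors, was at 93.1 to 252 RPKM with a median of 144 in late cells, against 0.0478, 0 and 0.125 RPKM in early cells 11, 13 and 18, and did not overlap. ID2 was at 0, 215, 542, 98.1, 14.7 and 418 RPKM in late cells 02 to 20 in order of their numbers, against 0.0543, 3.77 and 0 RPKM in early cells, so late cell 02 had none listed. ID3 was present on both sides, at 2.63 to 1041 RPKM with a median of 47.6 in late cells and 389, 115 and 333 RPKM in early cells (log2 ratio 0.24). BAMBI, a decoy receptor, averaged 11.2 ± 16.7 RPKM in late cells and 43.0 ± 18.0 RPKM in early cells, and ACVR1, a type I receptor, passed 1 RPKM in late cells 14 and 18 only, at 15.9 and 29.1 RPKM.

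Genes of LIF and JAK-STAT signalling, which sustains naive cells in mouse through STAT3, were mostly lower (2 higher and 6 lower of 8 measured), the higher members being JAK1 and the feedback inhibitor SOCS2. IL6R was at 0 to 6.80 RPKM with a median of 0.0169 in late cells, against 15.9, 16.2 and 23.0 RPKM in early cells 11, 13 and 18, without overlap. IL6ST, the shared receptor gp130, averaged 1.79 ± 2.84 RPKM in late cells and 40.6 ± 43.0 RPKM in early cells, where cell 13 had only 0.0299 RPKM. GAB1, an adaptor, averaged 0.76 ± 1.18 RPKM in late cells and 9.14 ± 5.08 RPKM in early cells without overlap. JAK1 was on in late cells 09 and 20 at 26.5 and 29.0 RPKM and at most 0.0347 RPKM in every other cell. STAT3 averaged 11.9 ± 19.4 RPKM in late cells and 30.3 ± 18.5 RPKM in early cells with overlap (log2 ratio -1.27, or -2.32 without late cell 09 and -0.69 without early cell 18).

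**Figure D4:**
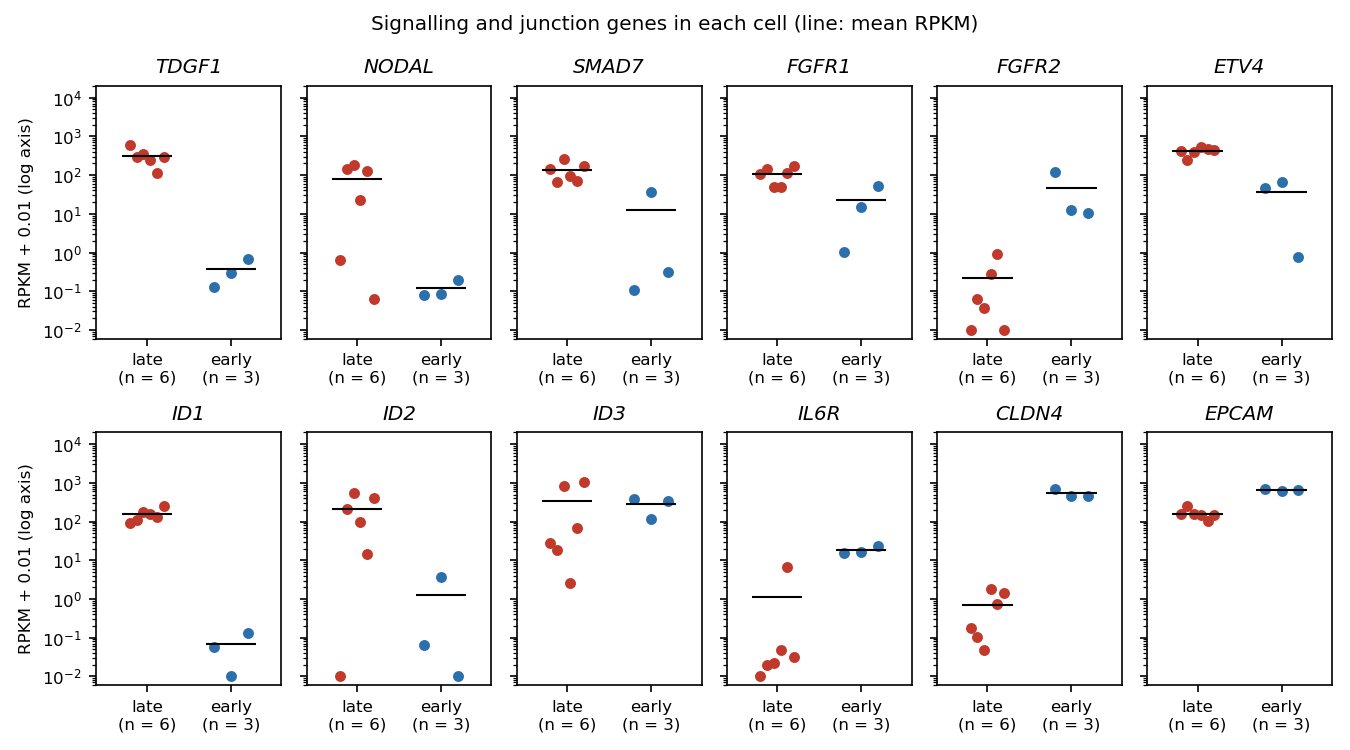
RPKM plus 0.01 on a log axis for 12 signalling and junction genes, each point a cell, with late epiblast cells (red, n = 6) left of early inner cells (blue, n = 3) and a line at the mean. TDGF1, SMAD7, ETV4 and ID1 lie above, and FGFR2, IL6R, CLDN4 and EPCAM below, every early cell; NODAL, FGFR1, ID2 and ID3 overlap.

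Among DNA methylation genes (4 higher and 1 lower of 9 measured) the writer DNMT3B is given above. The maintenance enzyme DNMT1 was at 30.2, 12.7 and 12.7 RPKM in late cells 14, 18 and 20 and under 1 RPKM in all other cells. UHRF1, its partner, reached 41.6 RPKM in late cell 06 (log2 ratio 3.15, or 1.20 without late cell 06). TET2, which oxidises methylcytosine, was at most 0.0154 RPKM in late cells, against 4.83, 19.8 and 3.06 RPKM in early cells (log2 ratio -3.34, or -2.30 without early cell 13), and DNMT3A did not pass 2-fold (log2 ratio -0.57).

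Some genes of the outer epithelium and the hypoblast had less RNA in late epiblast cells than in early inner cells, while other members of both marker lists had more. CLDN4, a tight-junction claudin and trophectoderm marker, had the lowest log2 ratio of all genes without overlap, at 0.0386 to 1.77 RPKM with a median of 0.454 in late cells, against 677, 454 and 469 RPKM in early cells 11, 13 and 18. Its neighbour in function CLDN3 was at most 0.219 RPKM in late cells, against 201, 98.9 and 231 RPKM in early cells, and the adhesion molecule EPCAM was still present in late cells, at 104 to 247 RPKM with a median of 152, against 681, 611 and 647 RPKM in early cells. CDX2, a trophectoderm factor, was at most 0.0321 RPKM in late cells, against 56.5, 0 and 17.7 RPKM in early cells. HNF4A, a factor of hypoblast and visceral endoderm, was at most 0.22 RPKM in late cells, against 34.1, 5.94 and 26.9 RPKM in early cells. LAMA1 and LAMC1, laminins of the basement membrane, averaged 0.419 ± 0.966 and 3.55 ± 4.24 RPKM in late cells, against 13.7 ± 6.11 and 44.8 ± 17.2 RPKM in early cells, both without overlap.

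As lists, hypoblast markers had 3 higher and 6 lower of 10 measured and trophectoderm markers 5 higher and 6 lower of 15. The hypoblast list summed to 53.6 to 1243 RPKM in late cells, against 159 to 318 RPKM in early cells, with PDGFRA, APOA2 and APOB at 0 throughout. The upper end is late cell 09 with 1168 RPKM of APOE. The trophectoderm list summed to 848 to 3233 RPKM in late cells, against 1135 to 2135 RPKM in early cells, with ELF5 at 0. Its upper end is late cell 06, where the keratins KRT18, KRT8 and KRT19 were at 1771, 734 and 397 RPKM. KRT7, another keratin, was on in 4 late cells (up to 54.0 RPKM) and at most 0.0361 RPKM in early cells. CYP11A1, the steroid side-chain cleavage enzyme, averaged 179.8 ± 103 RPKM in late cells and 29.1 ± 47.6 RPKM in early cells (log2 ratio 2.59, or 6.08 without early cell 11). The part of these genes in the other differences was not tested.

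A few late cells held gastrulation genes. T (brachyury), a factor of the primitive streak, was at 30.2, 291, 51.5, 0, 22.6 and 2.27 RPKM in late cells 02, 06, 09, 14, 18 and 20, against 0.0234, 0 and 0 RPKM in early cells. EOMES and MIXL1, chosen after their values were seen, are further streak factors. EOMES was at 75.2 RPKM in late cell 06, at most 0.46 RPKM in the other late cells and at 0 in all early cells. MIXL1 was at 22.9 and 26.8 RPKM in late cells 06 and 18, at most 0.101 RPKM in the other late cells and at 0 in all early cells. Late cell 06 thus had all 3, together with the keratins above and 20.3 RPKM of GATA3, and it was the late cell with the lowest SOX2. GSC, a further streak and organiser gene, went the other way, at most 0.34 RPKM in late cells, against 116, 43.4 and 24.2 RPKM in early cells. The amnion and gastrulation list had 4 higher and 4 lower of 11 measured, or 7 higher and 4 lower without early cell 13. Of genes linked to the neural lineage, 6 higher and 1 lower of 8 measured passed 2-fold, among them ZIC2 and, in late cell 06, CRABP2 at 36.8 RPKM and NES at 33.2 RPKM, both listed at 0 in early cells.

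Secreted matrix and its chaperones were higher while laminins were lower (5 higher and 3 lower of 9 measured). SERPINH1, the collagen chaperone HSP47, was at 13.2 to 169 RPKM with a median of 77.3 in late cells, against 0.325, 0.557 and 0.458 RPKM in early cells. SPARC, a collagen-binding protein, was at 0.641 to 230.1 RPKM with a median of 78.4 in late cells, against 0.0643, 0.613 and 0.294 RPKM in early cells, the lowest late cell lying barely above the highest early one. COL4A2 was above 1 RPKM in late cells 02, 09, 14 and 18, up to 44.4 RPKM, against at most 0.0591 RPKM in early cells. Late cells 11, 12 and 17, which the choice leaves out, held more of both SPARC and COL4A2. SPARC was at 1585.5, 1616 and 1032 RPKM there, and COL4A2 at 170.2, 227 and 353 RPKM. The adhesion list had 5 higher and 3 lower of 11 measured, or 3 higher and 3 lower without late cell 06 and 4 higher and 1 lower without early cell 13. ZYX, a focal adhesion protein, averaged 313 ± 125 RPKM in late cells and 37.5 ± 38.2 RPKM in early cells without overlap. CDH1, E-cadherin, averaged 10.7 ± 14.6 and 39.6 ± 37.8 RPKM in late and early cells with overlap (log2 ratio -1.80, or -2.77 without late cell 06 and -0.72 without early cell 13). In the apical polarity and lumen list 1 higher and 5 lower of 11 measured passed 2-fold, and CLDN7 averaged 0.603 ± 1.03 RPKM in late cells and 7.60 ± 4.97 RPKM in early cells.

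Among mitotic genes most were lower and none was higher (0 higher and 10 lower of 16 measured), or 1 higher and 5 lower without early cell 18, the shallowest cell. AURKA, a spindle kinase, was at 0 to 1.51 RPKM with a median of 0.16 in late cells, against 67.5, 83.8 and 38.3 RPKM in early cells 11, 13 and 18, without overlap. PLK1 averaged 64.3 ± 79.2 RPKM in late cells and 235 ± 154 RPKM in early cells, and CCNB1, cyclin B1, 48.1 ± 36.9 and 201 ± 172 RPKM, both with overlap (CCNB1 log2 ratio -2.04, or -1.20 without early cell 11). Genes of DNA replication were mostly near level (3 higher and 1 lower of 18 measured), with 5 higher and 2 lower without late cell 14, 6 higher and 1 lower without late cell 18, 4 higher and 3 lower without late cell 20, 8 higher and 2 lower without early cell 13 and 5 higher and 1 lower without early cell 18. MCM2, a helicase subunit, averaged 96.8 ± 81.3 RPKM in late cells and 10.8 ± 16.9 RPKM in early cells (log2 ratio 3.05, or 5.55 without early cell 13).

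Stress genes were split (4 higher and 5 lower of 14 measured, or 2 higher and 6 lower without late cell 14 and 2 higher and 3 lower without early cell 11). ATF3 was at most 0.0811 RPKM in late cells, against 48.0, 60.8 and 8.32 RPKM in early cells 11, 13 and 18, and GADD45A averaged 0.576 ± 0.974 RPKM in late cells and 40.0 ± 47.5 RPKM in early cells, both without overlap. MYC, a transcription factor of growth, was at 21.2 to 509.7 RPKM with a median of 46.7 in late cells, against 0.0734, 19.1 and 0.512 RPKM in early cells (log2 ratio 4.31, or 6.86 without early cell 13), while its relative MYCN averaged 74.0 ± 37.2 RPKM in late cells and 182 ± 177 RPKM in early cells (log2 ratio -1.29, or -0.39 without early cell 18; 0.57 with means of log2 values). The list of ribosome biogenesis and MYC genes had 3 higher and 3 lower of 16 measured.

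Metabolic lists showed no common direction. Glycolysis had 4 higher and 3 lower of 17 measured, or 2 higher and 2 lower without early cell 13, and LDHA, which makes lactate, averaged 28.4 ± 32.6 RPKM in late cells and 194 ± 143 RPKM in early cells. Oxidative phosphorylation had 5 higher and 3 lower of 25 measured. Its complex III members differed in sign, UQCRH at 74.8 to 423 RPKM with a median of 209 in late cells, against 26.0, 24.9 and 22.2 RPKM in early cells, and UQCRC2 at 83.9 ± 45.8 RPKM in late cells and 323 ± 185 RPKM in early cells. Amino acid and one-carbon genes had 6 higher and 5 lower of 15 measured, or 0 higher and 5 lower without early cell 11 and 3 higher and 4 lower without early cell 18. SHMT1, which passes carbon from serine to folate, and MAT2A, which makes S-adenosylmethionine, averaged 34.1 ± 28.6 and 64.2 ± 41.9 RPKM in late cells, against 144 ± 31.9 and 264 ± 128 RPKM in early cells, both without overlap. Polycomb and chromatin genes had 5 higher and 4 lower of 18 measured, with PHC1 at 30.0 ± 23.9 RPKM in late cells and 0.0102 ± 0.0176 RPKM in early cells and SUZ12 at 32.8 ± 20.4 and 139.9 ± 94.3 RPKM. Of oocyte genes 1 higher and 2 lower of 3 measured passed 2-fold, NLRP7 averaging 563 ± 155 RPKM in late cells and 1204 ± 176 RPKM in early cells without overlap (log2 ratio -1.09, or -0.97 without early cell 11), and of genome activation genes 1 higher and 2 lower of 4, DPRX, a homeobox gene, averaging 280.4 ± 262 and 1313 ± 339 RPKM without overlap.

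Of the 15 genes with the largest log2 ratio among those higher without overlap, TDGF1, ZIC2, ID1 and TCF7L1 are described above. The other 11 were FXYD5, PPAP2A, LSM3, SDF2L1, CMBL, TERF1, MARC2, PNP, ALPL, DAPK1 and RGS19, with log2 ratios between 6.32 and 7.54. TERF1, a protein of telomeres, was even among late cells, at 224 to 442 RPKM with a median of 282, against 3.06, 0.658 and 0.68 RPKM in early cells. ALPL, tissue-nonspecific alkaline phosphatase, was uneven, at 0.338 to 195 RPKM with a median of 79.4 in late cells, against 0.215, 0.0759 and 0.0624 RPKM in early cells, so its separation rests on low values in cell 14. PNP, a purine salvage enzyme, was at 0.919 to 236 RPKM with a median of 90.0 in late cells and at 0.0744, 0 and 0.0649 RPKM in early cells. On the lower side CLDN4 and CLDN3 were followed, among others, by ZFAND2A, ACAD9, TMEM176B, TMEM45B, PCOLCE2, SPHK1, SLC37A4, SLC25A46, SPSB2, FEZ2 and CTSH, with log2 ratios between -6.82 and -5.91, and by SPINK2, which was listed at 0 in all late cells. SLC25A46, a mitochondrial outer membrane protein, was at most 0.0243 RPKM in late cells, against 69.9, 58.6 and 67.1 RPKM in early cells. ZFAND2A, a gene induced by arsenite and heat, was at 0 to 2.90 RPKM with a median of 0.284 in late cells, against 227, 149.7 and 186 RPKM in early cells. In FEZ2 and SPINK2 early cell 11 was at 0.109 and 0.108 RPKM, so their separation is of little weight.

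The same stages can be approached in cells that the choice did not use. Letter H has 9 inner cells of hatched blastocysts (about day 7) and 2 of early blastocysts, none of them in the comparison above, though the later stage is not the same. No NANOG limit was applied there. Early cells 03 and 05 of letter H held 139 and 9.16 RPKM of NANOG, and hatched cells 285 to 1064 RPKM. In this pair 42.4% of 6860 measured genes were higher and 18.3% lower in hatched cells, with a median log2 ratio of 0.65 over all measured genes. Of the 1475 genes higher in late cells of letter G and measured in letter H, 54.8% were higher and 10.5% lower in hatched cells, and of the 1695 lower ones 34.3% were higher and 23.8% lower. Among genes that did not overlap in letter G, 65.1% of 166 higher ones were higher in letter H and 9.04% lower. Of 274 lower ones 30.3% were lower and 26.6% higher. The share with the same direction was thus above 42.4% for the higher genes and above 18.3% for the lower ones, without a test of either. Over all 1695 lower genes, however, more were higher (34.3%) than lower (23.8%) in letter H.

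By gene, TDGF1 averaged 362 ± 101 RPKM in hatched cells and 2.69 ± 3.64 RPKM in early cells of letter H (SD, n = 9 and 2), ZIC2 46.1 ± 41.1 RPKM in hatched cells and 0 in both early cells, DNMT3B 836 ± 209.9 and 5.30 ± 7.17 RPKM, and GDF3 250.0 ± 149 RPKM in hatched cells, being listed at 0 in both early cells. Lower in both letters were KLF4, at 81.6 ± 33.0 RPKM in hatched and 271 ± 30.2 RPKM in early cells, TBX3 at 0.0646 ± 0.0733 and 16.4 ± 22.3 RPKM, and CLDN4 at 1.20 ± 1.11 and 320.2 ± 249 RPKM. Other genes differed little or went the other way. ID1 and DPPA5 had log2 ratios of 0.31 and 0.12 in letter H, IFITM1 -0.27, and SDF2L1 and UQCRH, which were higher without overlap in letter G, were lower without overlap in letter H, where 8.48% of measured genes were higher and 6.34% lower without overlap (log2 ratios -4.53 and -1.75). LSM3, higher without overlap in letter G, was lower with overlap in letter H (log2 ratio -1.14). Lower without overlap in letter G but higher with overlap in letter H were, among others, SLC25A46, ATF3 and MAT2A (log2 ratios 4.20, 3.09 and 2.25). The primed list had 10 higher and 2 lower of 15 measured in letter H, the naive list 6 higher and 6 lower of 17, Nodal 8 higher and 0 lower of 11, FGF 8 higher and 1 lower of 9, LIF 1 higher and 3 lower of 7 and mitosis 2 higher and 4 lower of 16. These counts are to be read against the letter H shares of 42.4% higher and 18.3% lower over all measured genes.

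Middle blastocysts (about day 5.5) lie between these stages in time. ZIC2 averaged 0.0425 ± 0.0362 RPKM in 4 middle cells of letter G and 0.0398 ± 0.068 RPKM in 4 of letter H, and TDGF1 18.5 ± 24.6 and 35.5 ± 21.9 RPKM, both under the late mean. DNMT3B stood at 728 ± 182 RPKM in middle cells of letter G and 29.5 ± 42.3 RPKM in those of letter H. CLDN4 stood at 0.239 ± 0.14 RPKM and 949 ± 269 RPKM in the same order. Of the 4 middle cells of letter G, 3 held 1253 RPKM or more of APOA1 and none over 3.69 RPKM of NANOG.

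**Figure D5:**
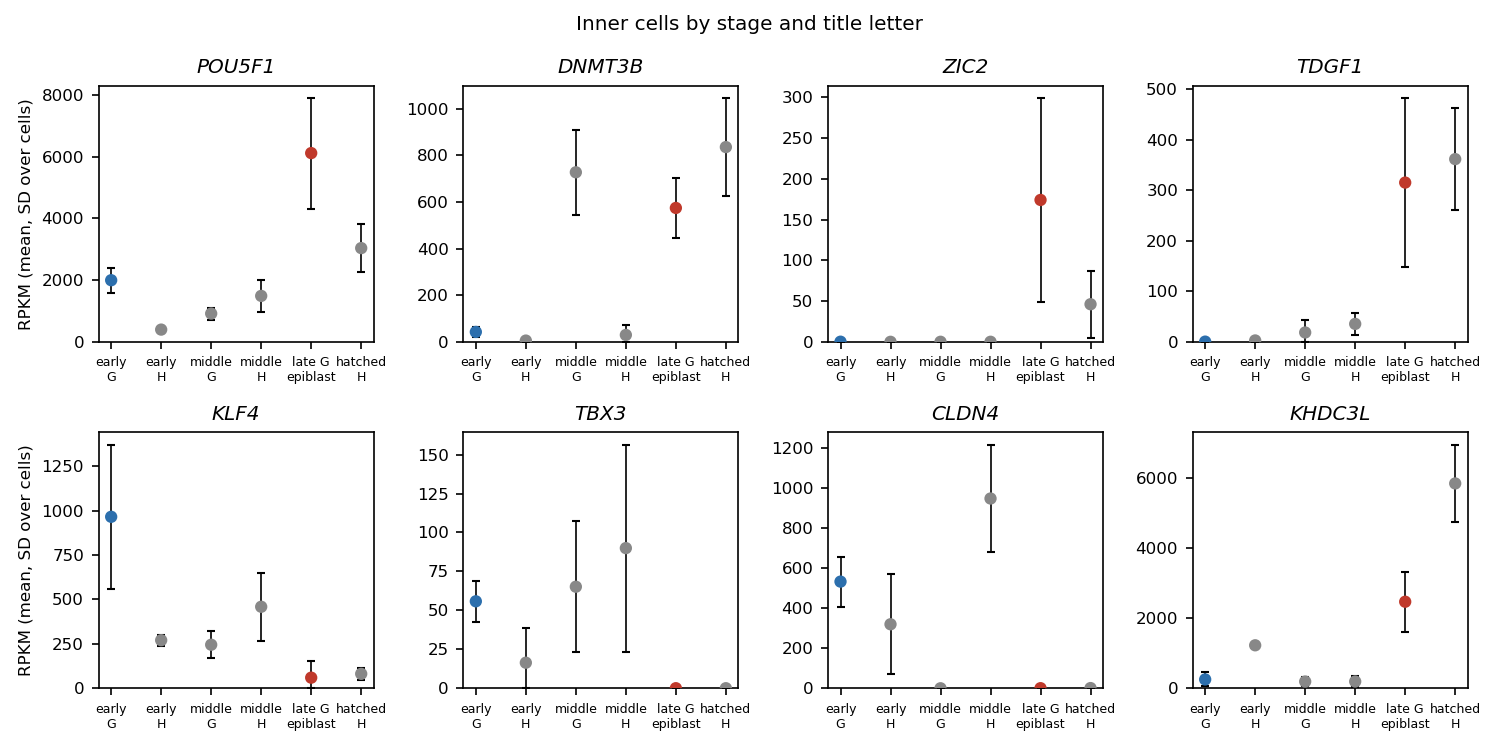
Mean RPKM of 8 genes in inner cells by stage and title letter, from early to hatched blastocyst, with bars of 1 SD over cells (n = 3, 2, 4, 4, 6 and 9 from left to right), cut at 0. Blue marks the early cells and red the late epiblast cells compared here; ZIC2 and TDGF1 are highest in late or hatched cells, and TBX3 is near 0 in both.

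The late cells left out show which genes go with the choice. POU5F1 was at 56.9, 105 and 171 RPKM in late cells 11, 12 and 17, DPPA5 at 2.21, 3.36 and 1.54 RPKM, IFITM1 at 17.9, 0.673 and 5.32 RPKM and KHDC3L at 13.8, 44.0 and 65.4 RPKM. ZIC2, at 1157, 361 and 418 RPKM, TDGF1, at 405, 315 and 351 RPKM, and SERPINH1, at 369, 612 and 508 RPKM, were also present there. ZIC2 and SERPINH1 averaged 174 and 80.1 RPKM in the 6 late cells taken, below each of these values. In cells 11, 12 and 17 ALPL was at 145, 560 and 381 RPKM and CRABP2 at 448, 22.2 and 59.4 RPKM. Their means in the cells taken were 92.4 and 6.15 RPKM. Higher levels of these genes than in early cells were thus not particular to the cells taken. Over all 10 late cells the log2 ratio turned positive for CTSH (1.58), DKK1 (5.26), GADD45A (0.83), GSC (1.19), LAMA1 (0.98), MAT2B (0.74), LAMB1 (0.51), LRP2 (0.32), KLF5 (0.30) and ZFP42 (0.65). In the same setting the ratio kept its sign but no longer passed 2-fold for CLDN7 (-0.23, against -2.42 with the 6 cells), EPCAM (-0.99 against -2.01), HNF4A (-0.63 against -4.43), POLA1 (-0.91 against -1.75), SOX2 (0.90 against 1.62), TGFBR1 (-0.91 against -2.93), SPRY4 (0.83 against 1.31) and PIAS1 (-0.38 against -2.43). Cell 23 had 5635 RPKM of POU5F1, 791 RPKM of T and 170.2 RPKM of EOMES.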

How the data were processed

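RNA of 95 single cells was measured, each as its own library with 100-base single-end reads, per the labels' protocols. The authors' deposited table gives 1 value per gene symbol (16049) and cell without naming its unit, and the values were read as RPKM made by the authors, from totals per cell and from low values that are whole multiples of a step. The submitters' processing notes list TopHat2 2.1.0, HTSeq, FastQC and DESeq2, without saying what each did. Build and strand use are not given in the sources used here. Coordinates and sequences are therefore left out, and antisense or near-identical genes cannot be told apart. All 95 columns were matched by title, with 0 left over. Whole reads could be recovered for 11515 genes (71.7%) within 0.05 of a read, and depth is the sum of these.

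Each group was summarised by its mean RPKM over cells, and the log2 ratio of late over early taken after adding 1 RPKM. A gene was measured when the late or the early mean was at least 5 RPKM, and called at 2-fold. No test, p-value or standard error is given, since no label ties cells to embryos. The members and gene lists were chosen with earlier results of these data known. The genes named follow a rule: the 15 largest log2 ratios in each direction without overlap, the 4 largest of each list, and any member of the pluripotency, Nodal, FGF, WNT, BMP, LIF, DNA methylation and lineage marker lists. Stability and outlier counts are over all 189 genes so defined, EOMES and MIXL1 included and some that are not reported here left out, of which the text describes a part chosen after values and stability were seen. Alternatives covered group summary, added value, filter, scaling, choice of cells and leaving out each cell. The computation was tested on simulated data. Python 3.11.15, pandas 2.3.3 and numpy 2.4.6 were used.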

Additional observations from a re-analysis of the deposited data

Results flagged for a closer look

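In 35 of 139 named genes with a late mean of at least 5 RPKM, 1 of the 6 late cells lay far from the others by Dixon's ratio, above a limit of 0.625. Chance flags about 1 in 20 groups, and values of single cells are skewed, so the count says little by itself. Late cell 02 stood apart in CCNA1 (56.5 RPKM), KLF4 (241 RPKM), PRKCI (40.8 RPKM), TYROBP (46.1 RPKM) and DPPA3 (3226 RPKM). Late cell 06 stood apart in CDH1 (39.3 RPKM), CRABP2 (36.8 RPKM), NES (33.2 RPKM), T (291 RPKM), UHRF1 (41.6 RPKM), KRT8 (734 RPKM), KRT18 (1771 RPKM), KRT19 (397 RPKM), DAB2 (103 RPKM), FGFR3 (24.7 RPKM), DUSP4 (32.5 RPKM), GSK3B (65.2 RPKM), SMAD5 (61.8 RPKM) and EOMES (75.2 RPKM). Late cell 09 stood apart in APOE (1168 RPKM), OTX2 (46.8 RPKM), MSX2 (168 RPKM), SPRED2 (38.2 RPKM) and SFRP1 (43.8 RPKM). Late cell 14 stood apart in NLRP7 (867 RPKM), PFKM (68.8 RPKM), SUZ12 (71.6 RPKM), PRDM14 (63.2 RPKM) and LAMB1 (36.8 RPKM). Late cell 18 stood apart in SOCS2 (43.1 RPKM) and LEFTY2 (28.5 RPKM). Late cell 20 stood apart in MARC2 (469 RPKM), GPI (147 RPKM), COL4A1 (32.1 RPKM) and CD24 (341 RPKM).

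The 2 letters went opposite ways in SDF2L1 (log2 ratio 7.02 for late over early cells of letter G and -4.53 for hatched over early cells of letter H) and UQCRH (log2 ratio 3.22 for late over early cells of letter G and -1.75 for hatched over early cells of letter H). In both genes every later cell lay on one side of every early cell in letter G and on the other side in letter H, and the difference was not tested. Other genes described above also passed 2-fold in opposite directions, with overlap in letter G, letter H or both. Among these were LSM3 (log2 ratio 7.09 in letter G and -1.14 in letter H), SLC25A46 (-6.04 and 4.20), BAMBI (-1.85 and 4.88) and UQCRC2 (-1.93 and 1.86).

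Late cell 23, which fails the NANOG limit and enters only the alternatives with all 10 or with 7 late cells, had 791 RPKM of T and 170.2 RPKM of EOMES, above every early cell of letter G.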

How the results depend on the processing

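Under 21 alternatives the counts of genes higher and lower kept within 1.5 times of 1802 and 2108. Leaving out 1 cell at a time gave 1784 to 2136 higher and 1963 to 2197 lower, a naive list median of -1.26 to -0.69 and a primed one of 3.22 to 3.85, and 51.7% to 55.4% and 22.6% to 23.7% of higher and lower genes with the same call in letter H. The primed list median, 3.61, kept its sign but moved to 2.37 with means of log2 values, 2.59 with medians over cells, 6.17 with 0.1 RPKM added, 1.78 with 5 RPKM added, 2.86 with no filter on low genes and 3.12 over all 10 late cells. With the early cells of letter H added, 38.7% of lower genes were lower in letter H, a value that shares those early cells with it. Of 189 named genes, 164 passed 2-fold and 133 of these kept their direction under every alternative. In 5 more (CCNA1, CRABP2, GRHL2, SFRP1 and EOMES) the ratio became 0 with medians over cells and changed sign in no alternative. It changed sign in the other 26: with means of log2 values in MYCN (0.57) and DUSP4 (-0.35), with medians over cells in ACVR1 (-0.0391), SOCS2 (-0.38), TFAP2A (0.0524), PRDM14 (1.49), PGF (0.0151), MSX2 (-0.0369), ZFP42 (0.0821) and DUSP4 (-1.43), over all 10 late cells in CTSH (1.58), DKK1 (5.26), GADD45A (0.83), GSC (1.19), LAMA1 (0.98), MAT2B (0.74), LAMB1 (0.51), LRP2 (0.32), KLF5 (0.30) and ZFP42 (0.65), with the early cells of letter H added in ATP5G1 (-0.0457), NDUFS5 (-0.82) and OOEP (-0.0312), with the APOA1 limit alone (7 late cells, chosen after seeing the data) in ZFP42 (0.53). Leaving out 1 cell at a time, the log2 ratio ran from -1.46 to 1.79 in DUSP4 (turned without late cell 06), from -3.60 to 0.21 in DKK1 (turned without early cell 11), from -4.54 to 0.0557 in TFAP2A (turned without early cell 11), from -5.62 to 0.00818 in ALDOC (turned without early cell 13), from -2.28 to 0.0583 in POLR1B (turned without early cell 13), from -2.94 to 3.78 in PRDM14 (turned without early cell 13), from -4.11 to 0.10 in PGF (turned without early cell 13), from -2.59 to 1.21 in ZFP42 (turned without early cell 13), from -3.94 to 0.0118 in LYZ (turned without early cell 18), from -5.83 to 3.13 in TYROBP (turned without early cell 18) and from -4.34 to 2.01 in GSK3B (turned without early cell 18). The cause was not tested. Among genes described above, the 2-fold call was also lost with its sign kept with means of log2 values for CRABP2 (0.91), POLA1 (-0.90), PRDM14 (-0.18), ZFP42 (-0.77) and SFRP1 (0.93), with medians over cells for DKK1 (-0.32), JAK1 (0.0327), UHRF1 (0.50), LEFTY2 (0.14), SPRY4 (0.57) and MIXL1 (0.0708), with depth-weighted means for MYCN (-0.88), with 5 RPKM added for PRDM14 (-0.84) and ZFP42 (-0.73), with median-of-ratios size factors for NLRP7 (-0.92) and PRDM14 (-0.63), with the early cells of letter H added for JAK1 (0.84), MYCN (-0.72), UQCRH (0.17), PRDM14 (-0.31), IFITM1 (0.55) and STAT3 (-0.97), with the APOA1 limit alone (7 late cells) for BAMBI (-0.63) and MAT2B (-0.0438). Of the 164 calls, 33 were lost with medians over cells, 19 over all 10 late cells and 3 to 15 on leaving out 1 cell, sign changes and genes falling under 5 RPKM included. No paired analysis was possible because each group counts as 1 sample and the results come from no test; cell numbers name cells and pair none. Depth limits low values, above all in early cell 18.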
